A study of Mus musculus with 8 samples.

Results

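Chemokine ligands and receptors of the mouse oviduct were examined on GD2 after neonatal Gen treatment. The genes were chosen by name: every noncontrol probe whose gene name in the array files starts with Ccl, Cxcl, Ccr, Cxcr, Xcl or Cx3c followed by a number, r or l, with Ccrn4l, Ccrk and Ccrl1 left out. This gave 67 of 41174 probes and 51 of 27962 gene names, 35 of them ligands and 16 receptors or receptor-like genes. The control group was 4 female CD-1 mice injected subcutaneously with corn oil on PND1–PND5. The Gen group was 4 female CD-1 mice given Gen, the soy phytoestrogen genistein, at 50 mg/kg/day in corn oil on the same days. All 8 mice were superovulated, mated at 6–8 weeks of age and plug positive, and oviducts were collected 48 hr after hCG with the embryos removed. Each RNA sample was labeled with 1 dye and hybridized to 1 Agilent whole mouse genome array, and the 2 groups were on separate slides, so that treatment cannot be told apart from slide.

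Chemokines are small secreted proteins that attract leukocytes through receptors coupled to inhibitory G proteins. CXC, CC, XC and CX3C chemokines are named for the spacing of their first cysteines. CXC ligands with the ELR motif (glutamate, leucine and arginine before the first cysteine) attract neutrophils, Ccl2 and its relatives attract monocytes, and Cxcl9, Cxcl10 and Cxcl11 are induced by interferons and attract T cells that carry Cxcr3. Ccl19, Ccl21 and Cxcl13 are homeostatic ligands of lymphoid tissue, and Cxcl12 with its receptor Cxcr4 guides stromal and hematopoietic cells. In the female reproductive tract, epithelial cells, stromal cells and resident leukocytes all make chemokines.

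Values are processed signals (linear intensities) scaled to the 75th percentile of each array. Signals of different probes are not comparable with each other, and a gene with several probes is given by its brightest one. The 2 groups were compared by limma, with Benjamini-Hochberg adjustment over 41173 probes, and a change was called at an adjusted p under 0.05. Of the 51 genes, 37 were well above background on all 8 arrays and 6 on none (Ccr1, Ccr4, Ccr8, Ccr1l1, Ccl1 and Ccl22). The other 8 were above it on some arrays, among them Cxcl15 and also Cxcl11, which was above background on no control array. Feature Extraction called 38–41 of the 51 genes well above background on each control array and 42–45 on each Gen array, and over all probes these numbers were 25391–28949 and 29539–31486. The oviduct epithelial markers, among them Ovgp1 (oviductal glycoprotein) and Foxj1 (the regulator of motile cilia), were well above background on all 8 arrays, and 0 of 8 were called (1 at an unadjusted p under 0.05). Control replicate 3 stood apart from the other controls in chemokine signals, as described below, and results that rest on it are given with and without it.

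Promoters are shown for Cxcl15, which had the largest difference between the groups, and for Cxcl1, Cxcl2, Ccl20 and Cxcl10, which were high on control replicate 3 and hold a κB match; they were chosen with these values known and describe sequence only. Each sequence is the 250 bases before the transcription start in RefSeq on GRCm38.p6, written 5′ to 3′ on the strand of the gene. Capitals mark matches to 3 motifs that were chosen with these values known: the NF-κB consensus (κB, on both strands), the interferon-stimulated response element (GAAA, any 2 bases, then GAAA, on both strands) and the TATA box TATAAA (on the strand of the gene). The Cxcl15 promoter (chr5:90794284-90794533, plus strand) holds TATAAA at 27 to 22 bases before the start and no κB match.
Cxcl15: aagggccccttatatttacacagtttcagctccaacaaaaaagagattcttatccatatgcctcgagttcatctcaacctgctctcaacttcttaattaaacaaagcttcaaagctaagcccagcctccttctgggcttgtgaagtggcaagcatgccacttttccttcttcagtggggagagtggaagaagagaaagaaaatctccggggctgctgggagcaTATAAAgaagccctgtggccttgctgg
In the Cxcl1 promoter (chr5:90890995-90891244, plus strand), 2 overlapping κB matches lie 71 to 61 bases before the start.
Cxcl1: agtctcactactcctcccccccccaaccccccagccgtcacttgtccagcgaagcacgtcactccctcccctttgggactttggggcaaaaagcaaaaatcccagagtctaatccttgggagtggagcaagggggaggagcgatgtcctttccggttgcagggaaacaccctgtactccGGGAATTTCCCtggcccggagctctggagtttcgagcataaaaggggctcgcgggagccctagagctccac
The Cxcl2 promoter (chr5:90903649-90903898, plus strand) has the same 11 letters at 97 to 87 bases.
Cxcl2: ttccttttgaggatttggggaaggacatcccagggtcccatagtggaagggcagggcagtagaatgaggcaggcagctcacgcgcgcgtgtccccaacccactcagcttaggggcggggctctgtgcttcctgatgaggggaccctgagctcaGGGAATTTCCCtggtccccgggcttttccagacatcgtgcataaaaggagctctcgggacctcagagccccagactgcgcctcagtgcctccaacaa
Ccl20 (chr1:83116516-83116765, plus strand) has 1 κB match at 80 to 71 bases, on the opposite strand.
Ccl20: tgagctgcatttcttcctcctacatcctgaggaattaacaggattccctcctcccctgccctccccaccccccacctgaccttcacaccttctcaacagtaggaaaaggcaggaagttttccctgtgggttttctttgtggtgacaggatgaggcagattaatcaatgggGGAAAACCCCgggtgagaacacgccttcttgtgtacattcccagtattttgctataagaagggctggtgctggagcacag
Cxcl10 (chr5:92348890-92349139, minus strand) has 4 κB matches, 3 of them overlapping at 104 to 94 bases, and the interferon element at 213 to 204 bases.
Cxcl10: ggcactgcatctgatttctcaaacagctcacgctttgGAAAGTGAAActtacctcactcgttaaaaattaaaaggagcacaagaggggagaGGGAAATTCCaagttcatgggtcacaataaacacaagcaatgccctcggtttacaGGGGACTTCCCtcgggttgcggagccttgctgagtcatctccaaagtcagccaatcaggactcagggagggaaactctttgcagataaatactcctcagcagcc
Promoters were found for 38 of the 51 genes, and 10 of the 38 (26.3%) held a κB match, against 7.25% of 32851 promoters in the table. The other 6 with a match were Ccl1, Ccl9, Ccr1, Ccr3, Ccr6 and Ccrl2, of which Ccl1 and Ccr1 were above background on no array. The interferon element was in 3 of 38 (2.98% of all) and TATAAA in 10 of 38 (7.59% of all). A gene counted when any of its promoters held a match, whereas the table was counted by promoter. Some of the 38 genes have several promoters, so the shares are not like for like, and counting by gene can raise them.

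Few chemokine genes passed the test. Of the 37 genes above background on all 8 arrays, 3 rose in Gen-treated mice (Cxcr3, Ccr9 and Ccl5) and 0 fell, where 1.92% of the 24947 tested probes of that class were called higher and 2.44% lower. With the 14 dimmer genes included, 4 genes were called higher, the fourth being Cxcl15, and 4 lower (Ccr1, Ccr4, Ccr8 and Ccr1l1), against 2.17% and 14% of all probes. The 4 lower ones were above background on no array, where 63.6% of 7855 probes were called lower. They hold no level, and their call was not read as a change. The groups did not overlap for 4 of the 37 genes (Cxcr3, Ccr9, Ccl5 and Ccr2), which is close to the 12.4% of all probes of that class, and in all 4 Gen was above control (5.09% of all probes; Gen was below control for 7.34%). With dim probes left out before the limma test, 9 of the 51 genes were not tested, among them the 4 called lower, and 0 of the other 42 were called (7 at an unadjusted p under 0.05), against 0.604% of 28966 probes called higher and 0.504% lower. An unadjusted p under 0.05 was found for 5 of 37 genes, against 15.2% of all probes.

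The median log2 difference of the 37 genes (Gen minus control) was 0.16, with 23 of 37 higher, whereas that of all probes of the class was -0.01. Chemokine signals also varied more between mice of the same group: their median SD was 0.50 in controls and 0.49 in Gen-treated mice on the log2 scale, against 0.18 and 0.22 for all probes. Control replicate 3 was the highest control for 23 of the 37 genes, and Gen replicate 2 was the highest Gen array for 24 of 37.

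**Figure D1:**
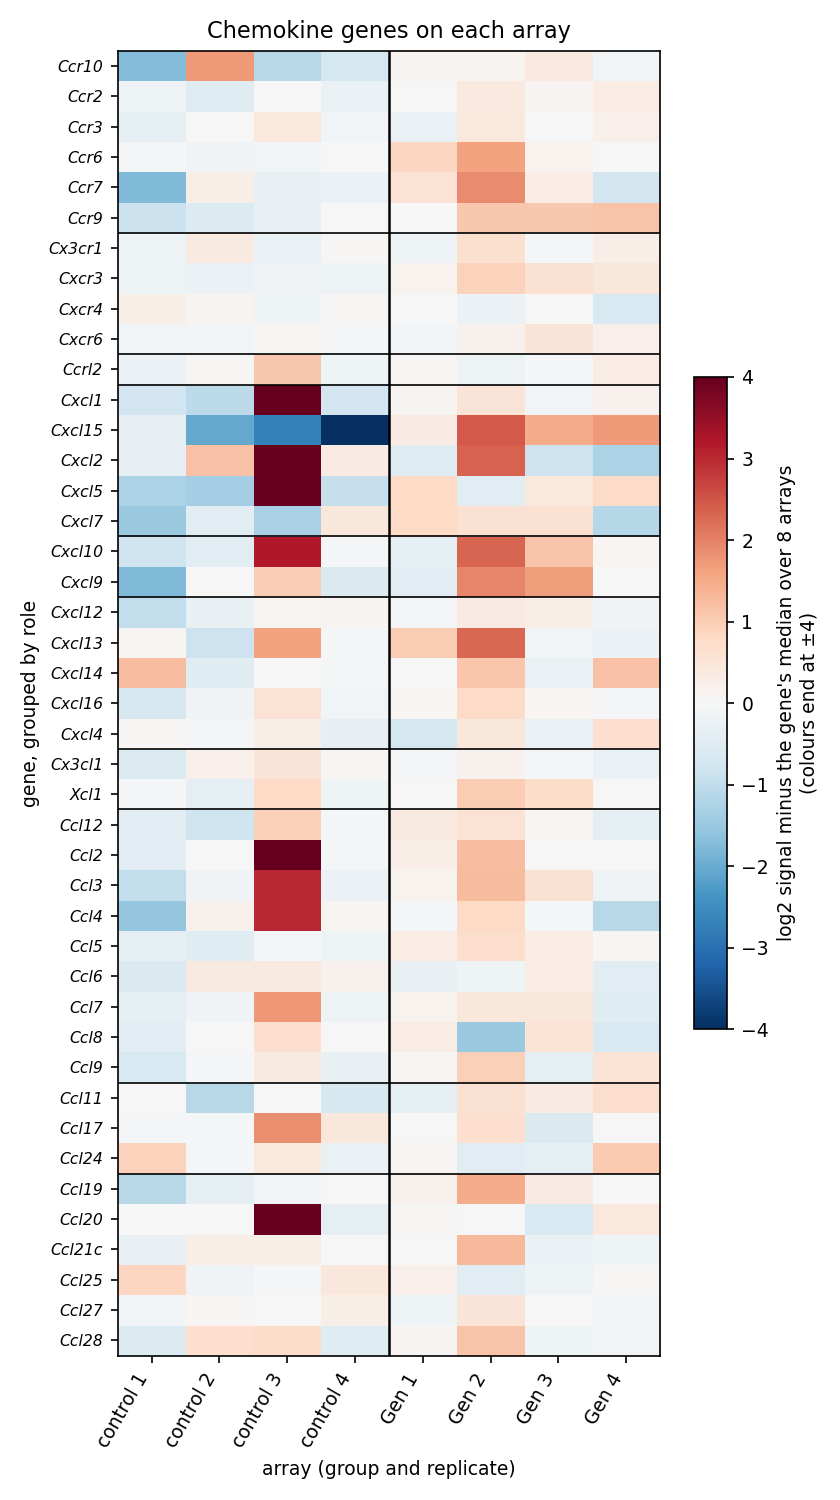
Signal of 43 chemokine genes on each array, as the log2 signal minus the median of the gene over 8 arrays (colour, ending at ±4), with genes grouped by role (horizontal lines) and groups divided by the vertical line. Dark red cells for Cxcl1, Cxcl2, Cxcl5, Ccl2 and Ccl20 lie on control replicate 3, and Cxcl15 runs from blue in 3 of the controls to red in Gen.

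Cxcl15, an ELR chemokine known as lungkine that attracts neutrophils, had the largest difference of the 51 genes. Its signals were 753, 229, 146 and 13.0 on control replicates 1, 2, 3 and 4, and 1201, 5164, 2667 and 3068 on the 4 Gen replicates in the same order. Every Gen array was above every control, but the controls spanned a wide range and control replicate 4 was not well above background. The log2 difference was 4.31 ± 1.13 (SE), or 19.9-fold, with an adjusted p of 0.0350 in limma and p = 0.0286 in a 2-sided exact permutation test, the smallest that 35 divisions of 4 and 4 allow. A second probe gave a difference of 3.98 ± 1.03 (adjusted p = 0.0329). Leaving out control replicate 4 lowered the difference to 3.19 (adjusted p = 0.0157), and leaving out any of the other 7 arrays ended the call, with an adjusted p of up to 0.0902. Over all probes, 97, 3, 2 and 1 were called without control replicate 1 and Gen replicates 1, 2 and 3 in turn. The loss in those fits was therefore not particular to Cxcl15. With dim probes left out before the test, the adjusted p of Cxcl15 was 0.1001. The brighter probe lies at chr5:90766592-90769265 on the plus strand of NCBI build 35 (mm7), the build of the array design.

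Cxcl15 lies in a row of CXC ligand genes on chromosome 5, where the probes come in the order Cxcl5, Cxcl7, Cxcl4, Cxcl15, Cxcl1 and Cxcl2. The neighbors had log2 differences of -0.04 ± 1.43 for Cxcl5, 0.91 ± 0.55 for Cxcl7 and 0.06 ± 0.31 for Cxcl4 on 1 side. On the other side they were -0.80 ± 1.59 for Cxcl1 and -2.03 ± 1.56 for Cxcl2, and none of the 5 was called (adjusted p, 0.335–0.990). Cxcl4 and Cxcl7 are platelet chemokines (Pf4 and Ppbp in RefSeq). Cxcl7 had signals of 75.2, 155, 85.2 and 285 in controls and 363, 322, 320 and 94.8 in Gen-treated mice. Its groups overlapped, since Gen replicate 4 was as low as the dimmer controls.

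**Figure D2:**
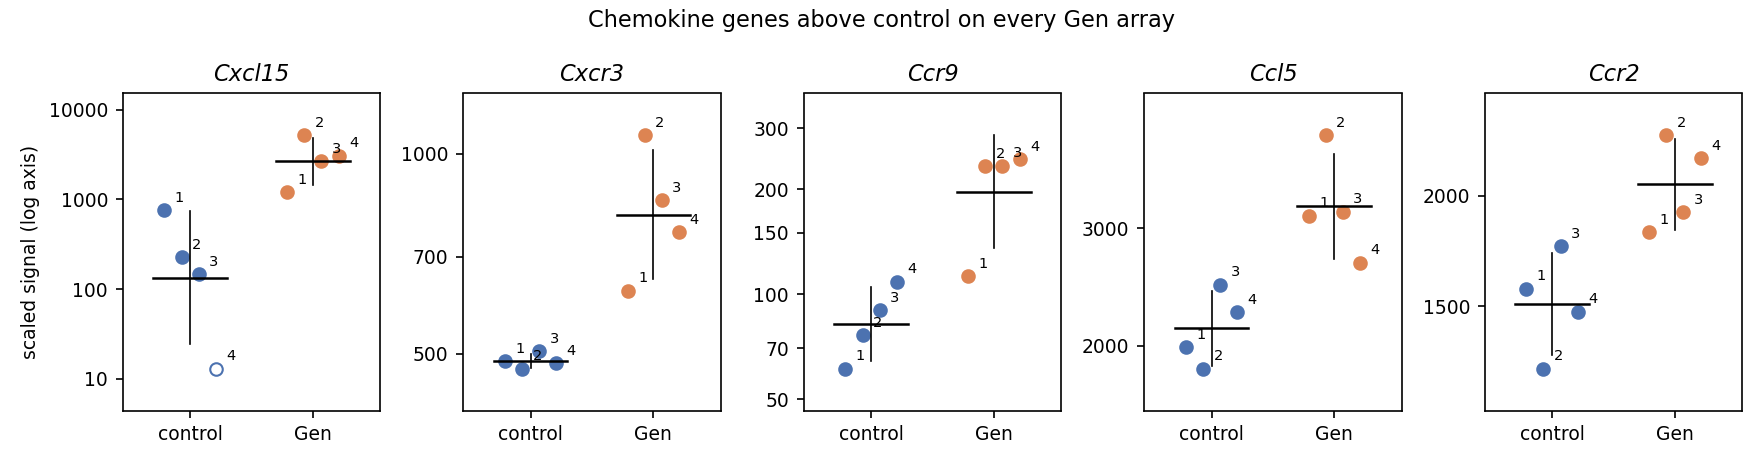
Scaled signal (log axis) of 5 chemokine genes on each array, with replicate numbers beside the points, filled points well above background, horizontal lines for the mean of log2 signals and vertical lines for ± 1 SD (n = 4 per group). All Gen points lie above all control points in the 5 genes, by narrow gaps for Ccr2 (1755 against 1818) and Ccr9 (109 against 113).

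Among receptors, Cxcr3 and Ccr9 rose. Cxcr3, the receptor of Cxcl9, Cxcl10 and Cxcl11 on activated T cells and natural killer cells, had signals of 487, 475, 504 and 484 in controls. In Gen-treated mice they were 623, 1066, 852 and 761, so that the tight control group lay wholly below. The log2 difference was 0.73 ± 0.17 (adjusted p = 0.0244), or 1.66-fold. Ccr9, the receptor of Ccl25 on lymphocytes that home to the gut, had signals of 61.1, 76.2, 90.2 and 109 in controls and 113, 234, 234 and 244 in Gen-treated mice. Gen replicate 1 was just above the highest control and apart from the other 3 Gen arrays. The log2 difference was 1.26 ± 0.29 (adjusted p = 0.0246), or 2.40-fold. Both calls were lost with dim probes left out before the test (adjusted p = 0.0690 for Cxcr3 and 0.0745 for Ccr9). Cxcr3 stayed called in 3 of the 8 fits with 1 array left out (those without control replicate 3, control replicate 4 or Gen replicate 4) and Ccr9 in 2 (without control replicate 3 or 4), and the adjusted p reached 0.0675 and 0.0693 in the others. Of those others, the fits without control replicate 1 or Gen replicate 1, 2 or 3 called at most 97 probes in all.

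Ccr2, the Ccl2 receptor of inflammatory monocytes, had signals of 1570, 1274, 1755 and 1479 in controls and 1818, 2342, 1918 and 2209 in Gen-treated mice. The groups did not overlap, and the log2 difference of 0.45 ± 0.14 missed the threshold (adjusted p = 0.0727). Ccr6, the Ccl20 receptor of B cells and some T cells, had a tight control group at 144, 136, 139 and 150. Its Gen signals were 271, 456, 164 and 148, the last of which fell among the controls (log2 difference, 0.72 ± 0.34, adjusted p = 0.207). Ccrl2, a receptor-like gene that binds chemerin and does not signal through G proteins, had signals of 1413, 1715, 3538 and 1477 in controls and 1745, 1452, 1636 and 2067 in Gen-treated mice. Its difference of -0.14 ± 0.30 turned to 0.16 without control replicate 3, the highest array, and to 0.10 without scaling between arrays.

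Of the 9 monocyte and inflammatory CC ligands, Ccl5 rose. Ccl5, or RANTES, is made by T cells and natural killer cells and binds Ccr1 and Ccr3. Its signals were 1990, 1849, 2471 and 2245 in controls and 3136, 4133, 3178 and 2664 in Gen-treated mice. All Gen arrays were above the highest control, by the least for Gen replicate 4. The log2 difference was 0.61 ± 0.17 (adjusted p = 0.0408), or 1.52-fold, and a second probe gave 0.65 ± 0.19 (adjusted p = 0.0504). The call was lost with dim probes left out before the test (adjusted p = 0.1001) and held in 2 of the 8 fits with 1 array left out, those without control replicate 3 or Gen replicate 4 (adjusted p up to 0.111 in the others). Among the fits that lost the call, those without control replicate 1 or Gen replicate 1, 2 or 3 called at most 97 probes in all. The other 8 monocyte and inflammatory CC ligands had differences of -0.80 to 0.46.

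Some leukocyte genes were also called higher, and their part in the results for Cxcr3, Ccr9 and Ccl5 was not tested. All 7 markers of leukocytes in general had positive differences (median log2 difference, 0.57), and 2 of 7 rose: Ptprc, the common leukocyte antigen (0.72 ± 0.19), and Lcp1 (0.62 ± 0.16). The summed signal of the 7 was 16891–24865 in controls and 25887–47129 in Gen-treated mice. Of 11 markers of T cells and natural killer cells, 2 rose, Nkg7 (0.67 ± 0.16) and Cd8a (1.42 ± 0.38), where Cd8a was above background on no control array. The summed signal of the 11 was 1647–2068 in controls and 1857–3256 in Gen-treated mice. The macrophage marker Adgre1 also rose (0.66 ± 0.15), 1 of 10 in its list, with sums of 71821–112753 and 93909–129724. Over all probes, 2.17% were called higher. With dim probes left out before the test, 0 of the 7, 0 of the 11 and 0 of the 10 markers were called. In bulk RNA, more cells of a type and more RNA per cell cannot be told apart.

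Some neutrophil and monocyte attractants were far higher on control replicate 3 than on the other controls. These were 3 of the 5 ELR ligands (Cxcl1, Cxcl2 and Cxcl5) and 3 of the 9 monocyte and inflammatory CC ligands (Ccl2, Ccl3 and Ccl4), each at least 4 times the highest other control, whereas Cxcl7 and Cxcl15 were below it. Over all roles this held for 6 of the 37 genes above background on all 8 arrays, against 31 of 24920 probes of that class (0.124%), so chemokine probes made up 6 of those 31. Cxcl1, the main ELR ligand induced in inflammation, had signals of 75.02, 61.6, 11242 and 74.2 in controls and 136, 181, 119 and 143 in Gen-treated mice. Cxcl5, an ELR ligand of epithelial cells, had signals of 45.9, 43.1, 4453 and 58.5 in controls and 196, 83.0, 150 and 191 in Gen-treated mice. For both genes control replicate 3 was the highest of the 8 arrays and the other 3 controls were the lowest. Ccl2, the chief monocyte attractant, had signals of 396, 543, 20404 and 526 in controls and 655, 1293, 539 and 551 in Gen-treated mice. Ccl4, an inflammatory CC ligand, had signals of 169, 558, 3972 and 522 in controls and 467, 861, 464 and 228 in Gen-treated mice. Apart from control replicate 3, the 2 groups overlapped in both ligands. Ccl3, which is close to Ccl4 in function, had a signal of 1943 on that array and 124–220 on the other controls. Cxcl10 reached 7461 there and 463–759 on the other controls, and it was also high on Gen replicate 2 (4041).

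Cxcl2 and Ccl20 followed the same pattern at the edge of detection. Cxcl2, another ELR ligand, had a signal of 1098 on control replicate 3 and 8.32–23.9 on the other controls, where it was not well above background. Ccl20, the Ccr6 ligand, had a signal of 1983 there and 14.0–18.5 on the other controls. In all, 8 of the 51 genes were well above background on this array and at least 4 times the other controls. Of these 8, 5 had a promoter in the table, and 4 of the 5 held a κB match (Cxcl1, Cxcl2, Ccl20 and Cxcl10, shown above), as did 6 of the 33 other chemokine genes with a promoter. The Ccl3 promoter held none. The 8 genes and the motif were chosen with these values known, so these counts describe sequence only and test nothing.

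**Figure D3:**
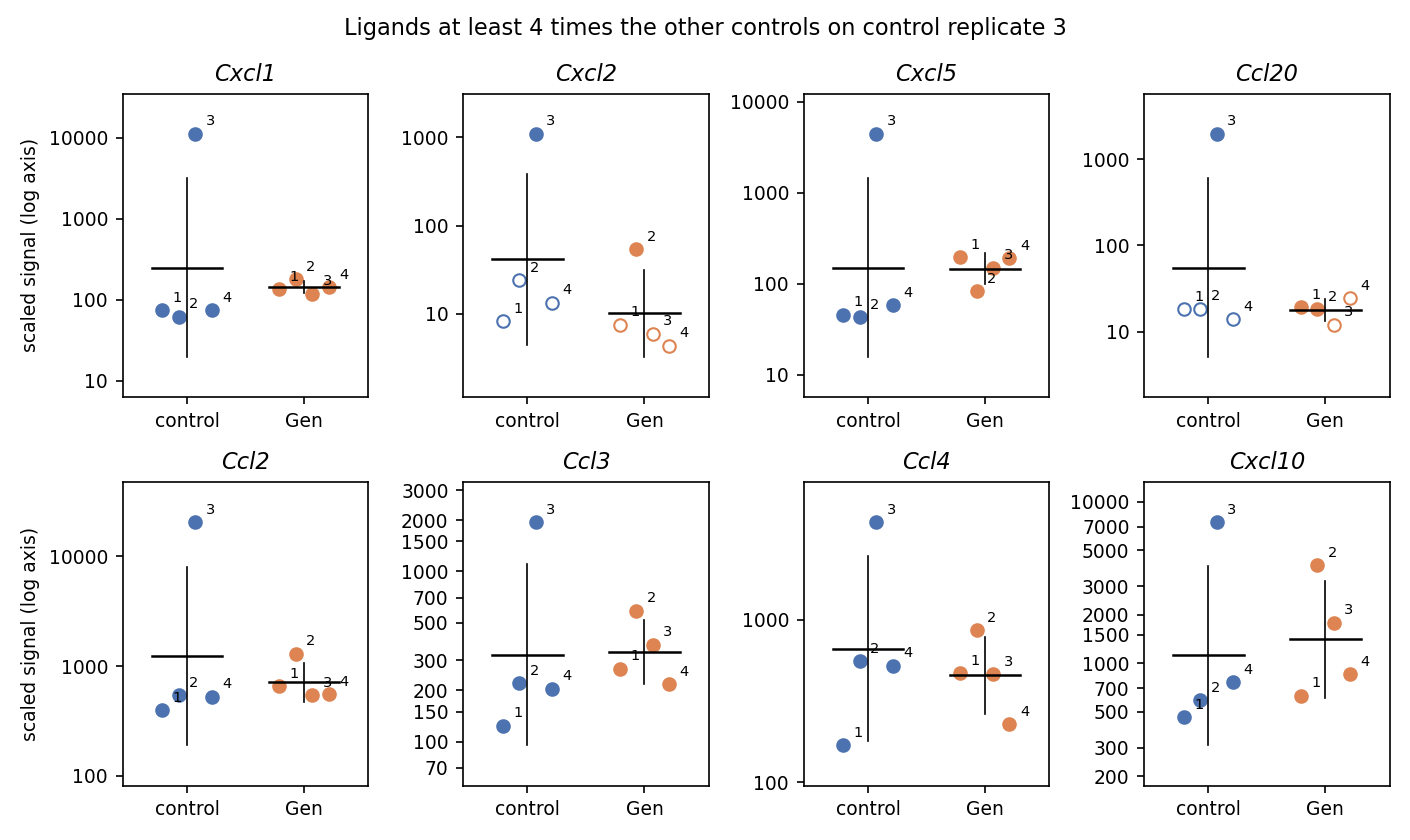
Scaled signal (log axis) of 8 ligands on each array, with replicate numbers beside the points, filled points well above background, open points not, horizontal lines for the mean of log2 signals and vertical lines for ± 1 SD (n = 4 per group). Control replicate 3 is the highest point in each panel, for Cxcl1 at 11242 against 61.6–75.02 for the other controls.

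Some inducers of chemokine genes were high on the same array. Of the 17 listed, 14 were above the highest other control, 3 of them at least 4 times (Tnf, Il1b and Tnfaip3). Nfkb1, Cebpb and Ifng were not. Over all probes on all 8 arrays, 16.1% were above it. The 14 include Il17a and Il1a, which were above background on no array, so these shares are not like for like. Probes above background on no array had a median signal of 11.9 on control replicate 3 and 6.48–9.55 on the other controls. Tnf, a cytokine that activates NF-κB, had a signal of 924 on control replicate 3 and 24.2–52.6 on the other controls, and Il1b had 2471 against 136–303. The NF-κB targets Tnfaip3 (5998 against 756–949), Nfkbiz (3900 against 1142–1525) and Relb (8915 against 3339–4382) were also highest there. Cxcr2, the receptor of the ELR ligands, had a signal of 168 on that array and 8.49–21.6 on the other controls. Of 8 neutrophil markers with a value on every array, 5 were above the highest other control, and Ltf, Camp and Mmp8 were not (Mmp8, 1361 against 2137–2189). The 5 include S100a9 (24568 against 336–4367, and 3637–15362 on Gen arrays) and Elane, above background on no array. Also above the highest other control were 7 of 7 general leukocyte, 9 of 10 macrophage and monocyte, 4 of 4 eosinophil and 4 of 5 blood endothelial markers, 0 of them at least 4 times. Of T and natural killer cell markers 0 of 11 were, and of B cell markers 0 of 6. Of 8 ovarian steroidogenic markers 3 were above the highest other control (Cyp11a1, Star and Lhcgr), and 5 were not. Cyp11a1 had 3903 against 238–354, and 4444–23785 on Gen arrays. Lhcgr had 40.7 on control replicate 3, where the lowest signal well above background was 65.9. Of the inducers, 2 were called lower (Il17a and Il1a), both above background on no array, where 63.6% of probes were called lower. The part of these genes in the chemokine signals was not tested.

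Control replicate 3 was singled out by its own chemokine signals, those of Cxcl1 and Cxcl5 among them. It was the highest control for 23 of the 37 genes, so leaving it out moves their differences up. The values without it are a description and not a separate test. Without control replicate 3, 5 of the 37 genes were called higher and 0 lower, where 1.25% of probes of that class were called higher. The 5 were Cxcr3, Ccr9 and Ccl5 with Cxcl1 and Cxcl5. Cxcl1 turned from -0.80 ± 1.59 to 1.03 ± 0.18 (adjusted p = 0.0226), and Cxcl5 went from -0.04 ± 1.43 to 1.59 ± 0.32 (adjusted p = 0.0226). With the 3 controls that were left, the Gen arrays were all above the controls in both ELR ligands. Cxcl15 had a difference of 4.35 ± 1.29 and missed the threshold (adjusted p = 0.0706). Ccl2 turned from -0.80 to 0.55 and Ccl4 from -0.55 to 0.31, without a call. The number of genes with a positive difference went from 23 to 30 of 37, the median difference from 0.16 to 0.42, and the median SD of the controls from 0.50 to 0.29 (0.19 for all probes). Gen was above control on every array for 7 of 37 genes, against 6.31% of all probes, and below it for 1, Cxcr4 (9.04% of all probes).

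**Figure D4:**
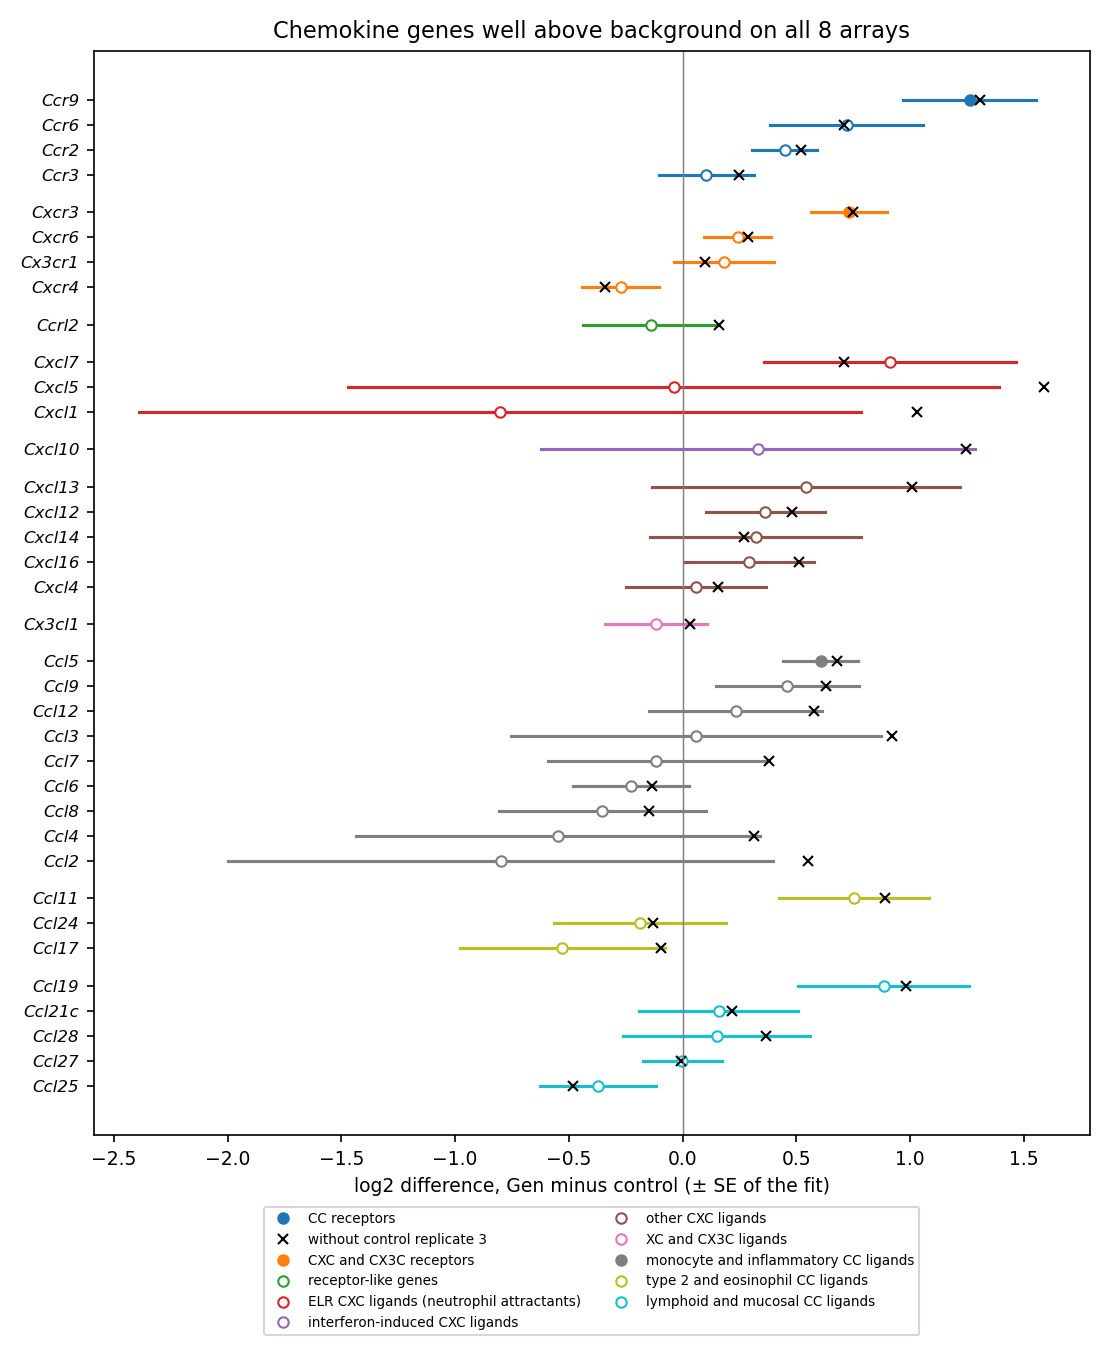
Log2 difference (Gen minus control) of 36 chemokine genes well above background on all 8 arrays, by role (colours), with bars of ± 1 SE of the fit, filled circles for an adjusted p under 0.05 and crosses for the difference without control replicate 3. Bars are widest for Cxcl1, Cxcl5 and Ccl2, whose crosses lie to the right of their circles.

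Lymphoid ligands were high on Gen replicate 2. Ccl19, a Ccr7 ligand that draws T cells and dendritic cells, had signals of 1595, 2610, 3199 and 3434 in controls and 3808, 9657, 4243 and 3399 in Gen-treated mice. Gen replicate 4 lay within the control range (log2 difference, 0.88 ± 0.38, adjusted p = 0.169). Ccl21c, the other Ccr7 ligand, had signals of 16740, 25011, 24106 and 20699 in controls and 20548, 50831, 17093 and 18123 in Gen-treated mice. Apart from Gen replicate 2 the groups covered the same range, and its difference of 0.16 ± 0.35 turned to -0.21 without that array. Mouse has near-identical copies of Ccl21 and Ccl19, so these probes may read more than 1 gene. Cxcl13, the B cell attractant, had a signal of 2323 on Gen replicate 2 and 403–951 on the other Gen arrays, and Ccr7 had 201 against 32.5–81.3.

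B cell genes were high on the same array. Ms4a1 (CD20) had a signal of 3551 on Gen replicate 2 and 324–1516 on the other Gen arrays, and 220–606 on the controls. Cxcr5, the Cxcl13 receptor, had signals of 48.6, 67.2, 77.3 and 79.2 in controls and 283, 593, 117 and 83.0 in Gen-treated mice (log2 difference, 1.59 ± 0.58, adjusted p = 0.111). The summed signal of 6 B cell markers was 1329–2629 in controls and 2392–10309 in Gen-treated mice, with 0 of 6 called. Their part in the chemokine signals was not tested. Without Gen replicate 2, 0 of the 37 genes and 0 of 24947 probes of that class were called by limma, at an unadjusted p under 0.05 for 4 of the 37 genes. The groups did not overlap for 4 of the 37 genes, the same 4 as with all arrays, all with Gen above control (7.23% of all probes). Leaving out an array cannot make separate groups overlap, so those 4 had to remain.

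Eosinophil and type 2 ligands gave no call. Ccl11, or eotaxin, which draws eosinophils and is made by stromal cells, had signals of 1075, 488, 1040 and 682 in controls and 812, 1597, 1329 and 1739 in Gen-treated mice. Gen replicate 1 fell among the controls and the other 3 Gen arrays were above all of them (log2 difference, 0.75 ± 0.33, adjusted p = 0.179). Ccl24 had a difference of -0.19 and Ccl17 of -0.53, and Ccl17 was highest on control replicate 3 (397). Ccl1 and Ccl22 were well above background on no array.

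None of the 4 genes of the homeostatic pairs Cxcl12 with Cxcr4 and Cx3cl1 with Cx3cr1 was called. Cxcl12 had signals of 10122, 16403, 21310 and 21942 in controls and 19069, 25217, 24139 and 18270 in Gen-treated mice, with overlap (log2 difference, 0.36 ± 0.26, adjusted p = 0.417). Its receptor Cxcr4 had signals of 720, 668, 552 and 632 in controls and 612, 518, 620 and 401 in Gen-treated mice, a difference of -0.27 ± 0.17 (adjusted p = 0.348). A dimmer Cxcr4 probe gave -0.57 ± 0.20 (adjusted p = 0.106). Cx3cl1, or fractalkine, a membrane-bound ligand of epithelium and endothelium, had signals of 13146, 22095, 27106 and 19968 in controls and 18029, 21597, 18383 and 15852 in Gen-treated mice. The Gen arrays all lay within the range of the controls. The difference of -0.12 ± 0.22 (adjusted p = 0.778) turned to 0.03 without control replicate 3 and to 0.12 without scaling. Its receptor Cx3cr1, a marker of patrolling monocytes and microglia, had signals of 519, 755, 487 and 605 in controls and 517, 922, 572 and 703 in Gen-treated mice (0.18 ± 0.22, adjusted p = 0.639). Of the 5 CXC ligands outside the ELR and interferon-induced roles, all had positive differences, of 0.06 to 0.54, and 0 were called.

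Genes that act with chemokines were read from lists. Of 33 receptor signalling genes with a probe, all above background on all 8 arrays, 2 fell and 0 rose. Over all probes of that class, 2.44% were called lower and 1.92% higher. The 2 that fell were Gnai1 and Gnai2, which encode inhibitory G protein subunits that chemokine receptors use among many others. Gnai1 had signals of 14666, 15151, 16309 and 16298 in controls and 10841, 11680, 11245 and 8911 in Gen-treated mice (log2 difference, -0.55 ± 0.12, adjusted p = 0.0236). Gnai2 had signals of 15693, 17092, 15432 and 14891 in controls and 11856, 11333, 10434 and 10791 in Gen-treated mice (-0.51 ± 0.10, adjusted p = 0.0236). In both genes every Gen array was below every control. With dim probes left out before the test Gnai2 was still called (adjusted p = 0.0473) and Gnai1 was not (adjusted p = 0.0598). The list had a median difference of 0.06. Of 15 genes for processing and presentation of chemokines, 1 rose, Cpn1 (0.76 ± 0.17), the catalytic subunit of a carboxypeptidase of plasma that trims basic residues from peptides. All 15 were above background on all 8 arrays, where 1.92% of probes were called higher. With dim probes left out before the test, 0 of the 15 were called. Of 11 chemokine genes and receptors under other names, 0 were called (2 at an unadjusted p under 0.05), and the median difference of the 9 on all 8 arrays was -0.05.

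Markers of other cells moved too, and their part was not tested. Of 8 ovarian steroidogenic markers 4 rose (Cyp11a1, Inha, Cyp19a1 and Lhcgr), with a sum of 4290–11720 on control and 12509–54268 on Gen arrays. The share called higher over all probes was 2.17%. Only 2 of the 4 that rose were above background on all 8 arrays, and 0 of the 8 were called with dim probes left out before the test. Among 4 markers of lymphatic endothelium, all above background on all 8 arrays, Pdpn fell (-0.76 ± 0.13), where 2.44% of probes were called lower. Of the 4, 2 had positive differences, and the median difference of the list was 0.10. Of 9 neutrophil markers 1 was called lower, Elane, which was above background on no array, and the sums were 231735–417288 and 384107–455859, most of it Ltf (lactoferrin), which epithelium also makes. In the lists of B cells, dendritic cells, eosinophils and blood endothelium 0 were called by limma, where 1 B cell marker and 1 dendritic cell marker had an unadjusted p under 0.05. Of 6 markers of stratified squamous epithelium 1 was called lower, Ivl, above background on no array. Over all probes above background on no array, 63.6% were called lower.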

How the data were processed

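Oviduct RNA of 8 mice (4 controls and 4 Gen-treated, independent biological replicates per the methods) was measured on 1-color Agilent arrays. The authors deposited, for each array, scanner results of Agilent Feature Extraction 9.5; the processed signal used here is an intensity on a linear scale, background-adjusted and detrended for each array but not scaled between arrays. The deposited series table repeats these intensity values at all 45018 spots. The Rosetta Resolver step of the methods was not applied here.

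The 1639 control spots and outlier spots were removed, the log2 values of repeated spots were averaged, and arrays were scaled to their 75th percentile. Groups were compared with limma 3.58.1 (lmFit and eBayes) in R 4.3.3 with data.table (version 1.17.8), with Benjamini-Hochberg adjustment over 41173 probes (1 of 41174 had no value in 1 group). The study names analysis of variance for its arrays, with no further detail of the model, and limma stood in for it; the t-test of its general methods was run as an alternative. Single genes had a 2-sided exact permutation test over 35 divisions. Plots were drawn with matplotlib 3.10.9. Sequences came from RefSeq tables on GRCm38.p6; positions of probes come from the design of the array (mm7). On simulated data from 41040 probes, 94 were changed 2-fold and 106 were changed 4-fold between Gen and control. Of these, 39.4% and 69.8% were recovered. The limma test on the arrays called 6674 probes, so its Benjamini-Hochberg cutoff differed and these rates do not give its sensitivity.

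The genes and lists were chosen with earlier results of these data known. Genes named with all values were Cxcl15, called genes above background on all 4 arrays of a group, the 3 brightest ligands and receptors in controls, the 10 largest differences among genes on all 8 arrays, and Cxcl12, Cxcr4, Cx3cl1 and Cx3cr1; other genes with values were named after their values were seen. Alternatives were quantile normalization, no scaling, scaling over probes above background on all arrays, normexp (offset 50), dim probes left out, outlier spots kept, a floor, the methods' t-test, an intensity trend, a replicate block, the series table, mean of probes and each array left out. The number of arrays limits the precision. Exons and transcript regions were not assigned, and Ccrl1 was not analysed here. The values of 1 of the 51 genes are not reported here; it stays in the counts over genes and is left out of the plots.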

Additional observations from a re-analysis of the deposited data

Results flagged for a closer look

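In 5 of the 36 groups of 4 arrays tested over the named chemokine genes, 1 array lay far from the other 3, with a gap to the nearest of them, as a share of the range of the 4 log2 signals, above Dixon's critical value. Chance gives this in about 1 in 20 groups that are independent and chosen without sight of their values. These groups share the same arrays, and most of the genes were named by their signals. Cxcl1, Ccl2 and Cxcl7 were named only for large differences, which an outlying array can shape. That rate is therefore no baseline for the 5 of 36, which are a description. In controls, the outlying array was replicate 3 for Cxcl1 (11242 against 61.6–75.02, gap 0.962 of the range) and for Ccl2 (20404 against 396–543, gap 0.920). In Gen-treated mice, replicate 4 was low for Cxcl7 (94.8 against 320–363, gap 0.907). Replicate 1 was low for Ccr9 (113 against 234–244, gap 0.945), and replicate 2 was high for Ccl21c (50831 against 17093–20548, gap 0.831).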

How the results depend on the processing

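The calls were not stable, and the causes were not tested. The 4 higher and 4 lower calls among chemokine genes became 0 and 0 with quantile normalization, normexp, dim probes left out, a floor or the methods' t-test after Benjamini-Hochberg, and 1 and 0 without scaling. Over all probes the 6674 calls became 178, 251, 321, 20 and 0 in the same order, and 640 without scaling. Leaving out dim probes removed the 4 chemokine genes called lower from the test. Of the genes on all 8 arrays, 3 called higher became 0 under each of these. Scaling over probes above background, outlier spots kept, the series table and the mean of probes kept 4 higher and 4 lower calls; an intensity trend added Ccr2 (adjusted p = 0.0447). Over the lists of other chemokine-system genes, 5 calls became 1 with dim probes left out, 13 with the unadjusted t-test and 0 with quantile normalization, no scaling, normexp, a floor or the adjusted t-test. Over the marker lists, 12 became 6 without scaling, 1 with quantile normalization, normexp or dim probes left out, 19 with the unadjusted t-test and 0 with a floor or the adjusted t-test.

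With the replicate number as a block, 0 chemokine genes, 0 genes of the other lists and 0 markers were called by limma, and 1 probe in all. Of the chemokine genes, 9 had an unadjusted p under 0.05 in that fit. Same-numbered arrays did not deviate together (correlations, -0.08, 0.11, -0.02 and -0.18), but so few correlations cannot exclude a pairing. The paper compares Gen-treated mice with control littermates, and litters were not used here.

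With 1 array left out, chemokine genes called higher ranged from 0 to 5, those called lower from 0 to 4, and genes on all 8 arrays called higher from 0 to 5 and lower from 0 to 0; without control replicate 1 or Gen replicate 1, 2 or 3 no chemokine gene was called by limma, at an unadjusted p under 0.05 for 10–12 of 51. Over all probes, 97, 3, 2 and 1 were called in those fits, against 5703–7130 in the other fits with 1 array left out. Genes without overlap ranged from 4 to 8 (8 without control replicate 3 or Gen replicate 4), calls in other lists from 0 to 6 and in marker lists from 0 to 12. The lower end of 4 was fixed, since leaving out an array cannot make separate groups overlap. Differences ranged from -1.47 to 1.03 for Cxcl1, -1.35 to 0.55 for Ccl2, -1.21 to 0.31 for Ccl4, -0.28 to 0.16 for Ccrl2 and -0.32 to 0.031 for Cx3cl1, with each positive value without control replicate 3, and from -0.21 to 0.32 for Ccl21c, where the negative value was without Gen replicate 2. Without scaling, Cx3cl1 (0.12) and Ccrl2 (0.10) also turned. Leaving out scaling moved the median difference of the probes on all 8 arrays from -0.01 to 0.24. Cxcl11 gave no bound above 1 under any setting. For genes not well above background, signal over background is the limit.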
